A study of Oryctolagus cuniculus with 3 samples.

Results

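A set of 5 matrix genes was followed through progression and regression of atherosclerosis in the rabbit abdominal aorta: the collagen genes COL1A1, COL5A3 and COL8A1, the link protein gene HAPLN1, and CTGF, encoding connective tissue growth factor and now also called CCN2. These 5 genes were chosen with earlier results of the same arrays known and are not a sample of matrix genes. The deposited values carry probe identifiers without gene names. The probe of COL5A3 was given, and that of each other gene was the single probe whose log2 ratios of model and recovery to control both lay within 0.006 of the gene's row in the study's supplementary gene list. All 5 genes found 1 probe each, out of 43603 gene probes. By a stricter form of the same match 549 genes of 3706 with a row received a probe, these 5 among them. The ratios to control therefore equal those of the study's list by construction, within the tolerance. So does the step between model and recovery, which is the difference of these ratios. Only the signal levels come from the deposited values alone.

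The data comprise 3 single-colour Agilent arrays, 1 each for control, model and recovery. All animals were male New Zealand white rabbits, 3 months old when purchased. The control rabbit (AS0, day 0) was uninjured and ate chow without added cholesterol. Its label also carries the word PBS, and the study's methods describe no such treatment of the control. The model rabbit (AS30, day 30) had 4 weeks of a high-cholesterol diet with peanut oil and balloon injury of the abdominal aorta. The recovery rabbit (AS60, day 60) had the same diet and injury followed by 4 weeks without added cholesterol or fat, which the labels call a normal diet and the study's methods a caloric restriction diet. Each array holds the aorta of 1 rabbit, chosen from a group of 4 by pathological sections and intravascular ultrasound. Injury, diet and time thus cannot be told apart. Since each group is a single array, the spread among rabbits is unknown, no test can be run, and each difference below compares single aortas. In bulk tissue, fewer cells of a type and less RNA per cell cannot be told apart either.

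Collagens give the arterial wall its tensile strength. Type I collagen is the main fibril-forming collagen of the adventitia and of fibrous plaque, type V collagen is a minor partner that sets the size of those fibrils, and type VIII collagen is a short collagen that forms networks and is known from smooth muscle cells of injured vessels. Link protein holds hyaluronan and large proteoglycans such as versican together. CTGF is a secreted matricellular protein, known as a target of transforming growth factor β and of mechanical signalling, and it is linked to matrix production in fibrosis.

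The 5 genes followed 5 different courses. COL5A3 was low in both later aortas, COL8A1 was high in both, and CTGF was high in the model aorta and higher again in the recovery aorta. COL1A1 was close to control in the model aorta and low in the recovery aorta, and HAPLN1 was highest in the model aorta. Values are log2 signals, and the floor was set at 4.37, the 40th percentile of all values, below which signals were set to that value and a difference became a bound. A difference of 1 on this scale is 2-fold, the threshold used throughout.

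**Figure D1:**
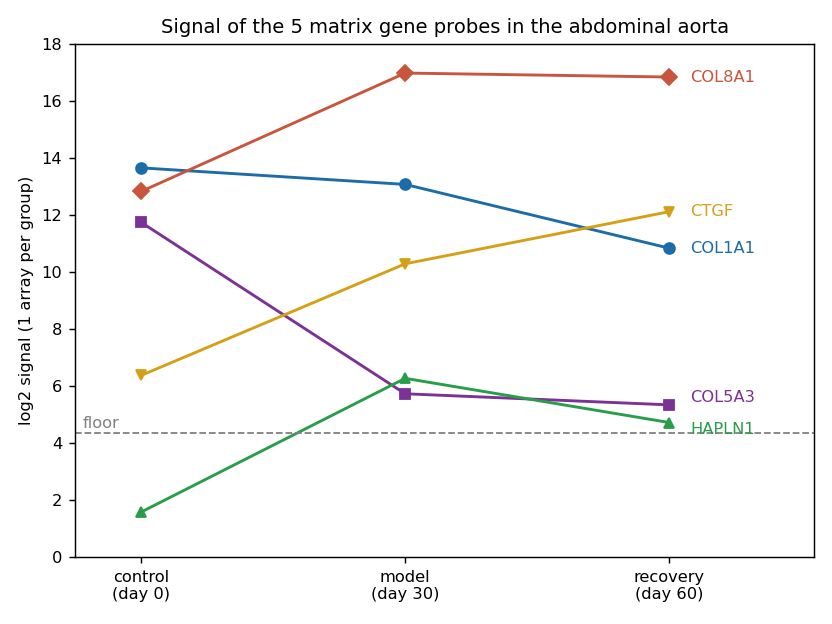
Log2 signal of the probe of each gene in the control, model and recovery arrays (horizontal axis, 1 array per group and no error bars), with the floor of 4.37 as a dashed line. COL8A1 stands near 17 in both later arrays, COL5A3 lies near the floor in both, CTGF is higher in each later array, COL1A1 is low only in recovery, and HAPLN1 lies below the floor in control; heights of different probes are not comparable with each other.

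Among the fibril-forming collagens, COL1A1 encodes the α1 chain of type I collagen. Its log2 signal was 13.66 in the control, 13.08 in the model and 10.84 in the recovery array. Control and model were close, and the recovery array alone was low. The model array was 0.58 below control (log2 difference -0.58), short of the threshold. The recovery array was 4.71-fold lower than the model array (log2 difference -2.24) and 7.04-fold lower than the control array (-2.82). Of 24728 probes above the floor in both later arrays, 189 were lower in recovery than in model by a larger measured difference. Within 2-fold in the model and at least 2-fold lower in recovery than in both other arrays is a course shared by 764 of 28959 probes (2.64%). Of the 5 assignments that of COL1A1 is the least certain, with 0.0312 probes expected to match by chance, against 0.0016 to 0.0104 for the others, and no probe within a tolerance of 0.003.

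COL5A3 encodes the α3 chain of type V collagen. Its probe A_04_P074352 had a log2 signal of 11.75 in the control, 5.74 in the model and 5.35 in the recovery array. Both later arrays lay far below control and within 2-fold of each other, though still above the floor. The model array was 64.5-fold lower than control (log2 difference -6.01) and the recovery array 84.5-fold lower (-6.40). The step from model to recovery was only -0.39. Of 24353 probes above the floor in both the model and control arrays, 33 were lower in model by a larger measured difference. Low in both arrays with no further 2-fold step was the commonest of the 5 courses, with 2526 of 28959 probes (8.72%). The 2 fibril-forming collagens thus reached low levels in different arrays, COL5A3 by day 30 and COL1A1 at day 60.

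Among the network-forming collagens, COL8A1 encodes the α1 chain of type VIII collagen. Its log2 signal was 12.83 in the control, 16.98 in the model and 16.84 in the recovery array. The signal was high in both later arrays, which were close to each other (recovery minus model -0.14). The model array was 17.8-fold higher than control (log2 difference 4.15) and the recovery array 16.1-fold higher (4.01). Of the same 24353 probes, 120 were higher in model by a larger measured difference. High in both arrays and within 2-fold between them is the course of 1930 of 28959 probes (6.66%). On the linear scale the model and recovery signals of this probe were 129307 and 117399, against 7281 in control. These later values lie near the top of the range, where 190 and 216 of 43603 gene probes were brighter in the model and recovery arrays. Saturation flags were not used here, so whether the probe was saturated, and the step between model and recovery compressed, was not tested. COL8A1 and COL5A3 thus stood on opposite sides of control in the model array.

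HAPLN1 encodes the hyaluronan and proteoglycan link protein first known from cartilage. Its log2 signal was 1.59 in the control, 6.28 in the model and 4.73 in the recovery array. The control value lay below the floor, and the recovery value was only 0.36 above it. The model array was therefore at least 3.75-fold higher than control (log2 difference of at least 1.91). The recovery array was 2.93-fold lower than the model array (-1.55), a difference measured above the floor on both sides. Against control the recovery array was at least 1.28-fold higher. This bound does not reach the threshold, so HAPLN1 was not counted as changed there, but the true difference may be larger than 2-fold. With the floor, 81.3% of the difference between model and control was reversed in recovery, but without it 33.1% was, since the unfloored differences from control were 4.69 in the model and 3.14 in the recovery array. How far HAPLN1 returned is thus not settled at these signals. With the control value set to the floor, its course is that of 571 of 28959 probes (1.97%), in which recovery and control count as within 2-fold.

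CTGF was the only 1 of the 5 genes that was at least 2-fold higher in the recovery array than in the model array. Its log2 signal was 6.38 in the control, 10.29 in the model and 12.12 in the recovery array. All 3 values lay above the floor and no 2 were within 2-fold. The model array was 15.1-fold higher than control (log2 difference 3.91), and the recovery array 53.5-fold higher (5.74). Recovery exceeded model 3.55-fold (1.83). Of 23983 probes above the floor in both the recovery and control arrays, 47 were higher in recovery by a larger measured difference. Higher in the model and at least 2-fold higher again in recovery was the rarest of the 5 courses, with 297 of 28959 probes (1.03%).

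**Figure D2:**
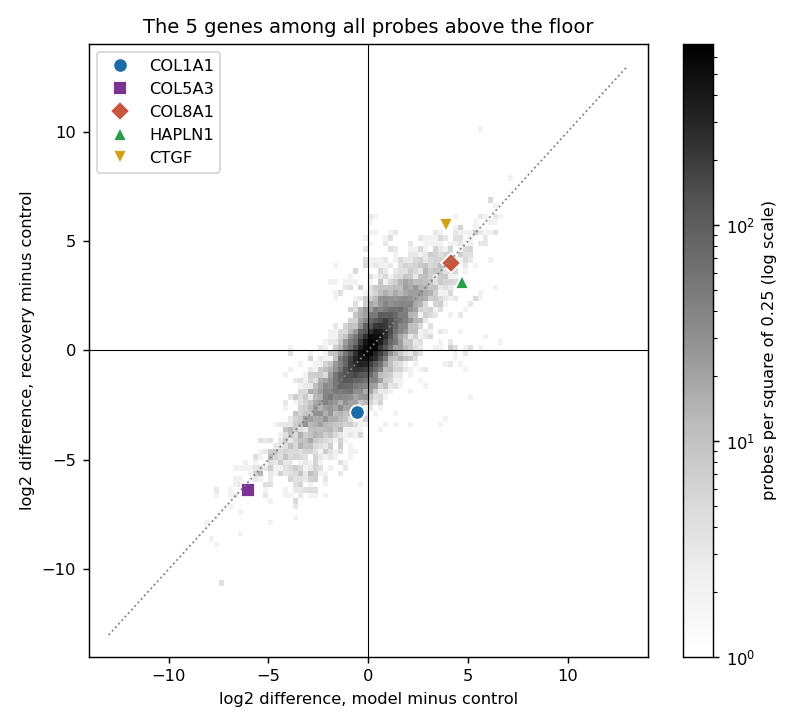
Log2 difference from control in the model array (horizontal axis) and in the recovery array (vertical axis) for all probes that passed the floor in any array, without flooring, as probes per square on a log grey scale. The dotted line marks equal values in both arrays: COL5A3 (-6.01, -6.40) and COL8A1 (4.15, 4.01) lie near it, CTGF (3.91, 5.74) lies above it, and HAPLN1 (4.69, 3.14) and COL1A1 (-0.58, -2.82) lie below it.

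Counted over the 5 genes, 4 differed at least 2-fold between the model and control arrays, with COL8A1, HAPLN1 and CTGF higher and COL5A3 lower. Over all 28959 probes that passed the floor in any array the share was 25.0%, with 11.9% higher and 13.1% lower. Between recovery and control 4 genes differed as well, with COL8A1 and CTGF higher and COL1A1 and COL5A3 lower, where the share of all probes was 32.0% (16.0% higher and 16.0% lower). Both comparisons share the control array. Between recovery and model 3 genes differed, CTGF higher and COL1A1 and HAPLN1 lower, against 15.2% of all probes (7.04% higher and 8.16% lower). Genes in the study's list had been called changed by the study on these arrays, so a high count among the 5 is fixed in part by how they were found.

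Spiked-in control transcripts put a scale on the offset between arrays. The 8 spiked-in rows above the floor in all arrays had a median log2 difference of -0.46 in model minus control (range -0.91 to -0.07) and of 0.56 in recovery minus model (0.12 to 0.82). After the arrays were shifted by these rows, the split of probes changed at least 2-fold was 7029 higher and 2416 lower in model against control, in place of 3451 and 3785 as deposited. In recovery against model it was 825 higher and 6125 lower, in place of 2040 and 2362. None of the 5 genes crossed the threshold in any comparison with this shift. COL1A1 then stood at -0.12 in model against control and at -2.78 in recovery against model. COL5A3 stood at -0.94 in recovery against model, just short of 2-fold, and COL8A1 at -0.69. In the same comparison CTGF stood at 1.28 and HAPLN1 at -2.10.

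**Figure D3:**
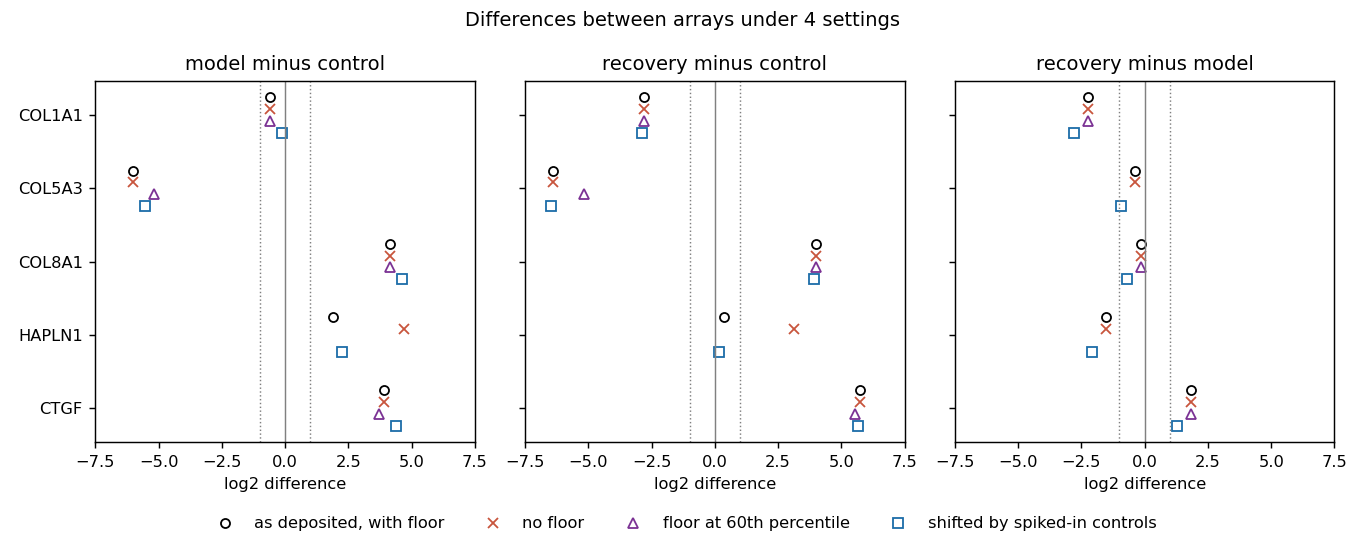
Log2 difference of each gene between arrays, with 1 panel for each pair of groups, as deposited with the floor, without a floor, with the floor at the 60th percentile and after a shift by spiked-in controls. Dotted lines mark 2-fold, and a point is left out where both arrays lie below the floor. The settings lie close together except for HAPLN1 against control, where the absence of a floor gives 4.69 in place of 1.91 in the model array and 3.14 in place of 0.36 in the recovery array, and for COL5A3, where the higher floor gives -5.17 in both later arrays.

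Other matrix genes were taken from lists of collagens, link proteins and hyaluronan genes, the CCN family, transforming growth factor β signalling, collagen processing, collagen receptors, and leucine-rich proteoglycans with other collagen-binding glycoproteins. Of 141 listed genes 11 received a probe, the 5 genes included. Of 44 collagen genes 12 had a row to match and 3 received a probe, all of them described above. Of the transforming growth factor β list, 0 of 21 genes did. The 6 genes that remain were therefore few, and they lean towards large changes, because only genes far from the bulk of probes can be matched to a single probe. Each also entered through the study's list, whose genes had been called changed on these same arrays. A high count and a large median among the 6 are thus fixed in part by how they were found. Of these 6, 5 were at least 2-fold higher and 1 lower in model against control, and the same numbers held for recovery against control. Over all probes the shares were 11.9% higher and 13.1% lower in model, and 16.0% and 16.0% in recovery. In recovery against model 1 of the 6 was higher and 0 lower at 2-fold, with 7.04% and 8.16% of all probes. Their median log2 difference in model against control was 2.68 with bounded values at their bound, against 0.02 over all probes.

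CTGF belongs to the CCN family of matricellular proteins, of which 3 of 6 listed genes received a probe. CYR61, an angiogenic member of the family, had a log2 signal of 9.18 in the control, 12.15 in the model and 11.98 in the recovery array. NOV, another member, had 8.30, 13.02 and 12.25 in the same order. All 3 were at least 2-fold higher in both later arrays than in control, CYR61 by 7.85-fold and NOV by 26.4-fold in the model array. Over all probes 11.9% were higher in model and 16.0% in recovery, but these 3 were matched through the study's list of changed genes. They parted between model and recovery, where CTGF stood at 1.83, CYR61 at -0.17 and NOV at -0.77. After the shift by spiked-in controls NOV passed 2-fold there, at -1.32.

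The genes that bind or modify collagen fibrils went in both directions. LOXL2, a lysyl oxidase that cross-links collagen, had log2 signals of 12.59, 9.15 and 9.21 in the control, model and recovery arrays. Like COL5A3 it was low in both later arrays, by 10.8-fold in model and 10.4-fold in recovery. FMOD, encoding the fibril-binding proteoglycan fibromodulin, was below the floor in control at 2.86 and stood at 6.76 in model and 7.81 in recovery. It was at least 5.22-fold higher in model than in control, and 2.07-fold higher in recovery than in model. The second of these differences was 0.50 on the log2 scale after the shift by spiked-in controls, under the threshold, where CTGF kept 1.28. PRELP, a proteoglycan that anchors basement membranes to connective tissue, had 5.25 in control, 8.53 in model and 7.60 in recovery. ITGA10, the α chain of a collagen-binding integrin, was below the floor in control at 1.06 and at 5.42 and 6.04 in model and recovery.

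Markers of cell types moved beside these genes. Smooth muscle markers identify the aortic media, and 3 of 10 listed received a probe, whose linear signals summed to 7266, 103017 and 141658 in the control, model and recovery arrays. All 3 were at least 2-fold higher in both later arrays, as was COL8A1, where the shares of all probes were 11.9% in model and 16.0% in recovery. Every marker with a probe was matched through the study's list of changed genes, so changes among them are fixed in part. MYH11, encoding the myosin of smooth muscle, had log2 differences from control of 4.43 in model and 4.95 in recovery, and ACTA2, smooth muscle α-actin, 3.57 and 4.00. Fibroblast markers, again 3 of 11 listed, summed to 5565 in control, 431 in model and 234 in recovery. DPT, a fibroblast protein of the dermis and adventitia that binds collagen fibrils, stood at -4.03 in model and -4.83 in recovery, and THY1 at -2.52 and -3.82. Between recovery and model, the step at which COL1A1 was low, only THY1 of these 3 passed 2-fold as deposited, at 2.46-fold lower. DPT stood at -0.80 there, under the threshold. That depends on the scaling: the shift by spiked-in controls lowers recovery against model by 0.55, which takes DPT past 2-fold lower too. TCF21, the third of them, was below the floor in both later arrays. Adipocyte markers, 3 of 9 listed, summed to 138336 in control, 4487 in model and 3369 in recovery, with ADIPOQ and PPARG below the floor in both later arrays, where COL5A3 was low too. The single endothelial marker with a probe, CLDN5, was 13.5-fold lower in model than in control. In recovery it was 6.81-fold higher than in model and at -0.99 against control. Under a wider limit of 0.1 expected chance matches, chosen after seeing the data, PECAM1 was matched as well. This endothelial marker stood at -2.53 in model and -1.90 in recovery against control, a smaller return than that of CLDN5. The 3 lymphocyte markers with a probe were below the floor in both later arrays. Neuronal and Schwann cell markers, 3 of 10 listed, summed to 10408, 5974 and 586 in control, model and recovery, but S100B made up most of the control sum. The other two of them, NPY and TH, were at least 235-fold and 9.09-fold higher in model than in control and lower again in recovery. Skeletal muscle markers, 2 of 9 listed, summed to 62.0, 2388 and 963. CKM was highest in model at 10.97, whereas TNNC2 had nearly equal log2 signals of 8.56 and 8.73 in the model and recovery arrays. Markers of chondrocytes and macrophages received no probe. The part of these cell types in the differences of the 5 genes was not tested.

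**Figure D4:**
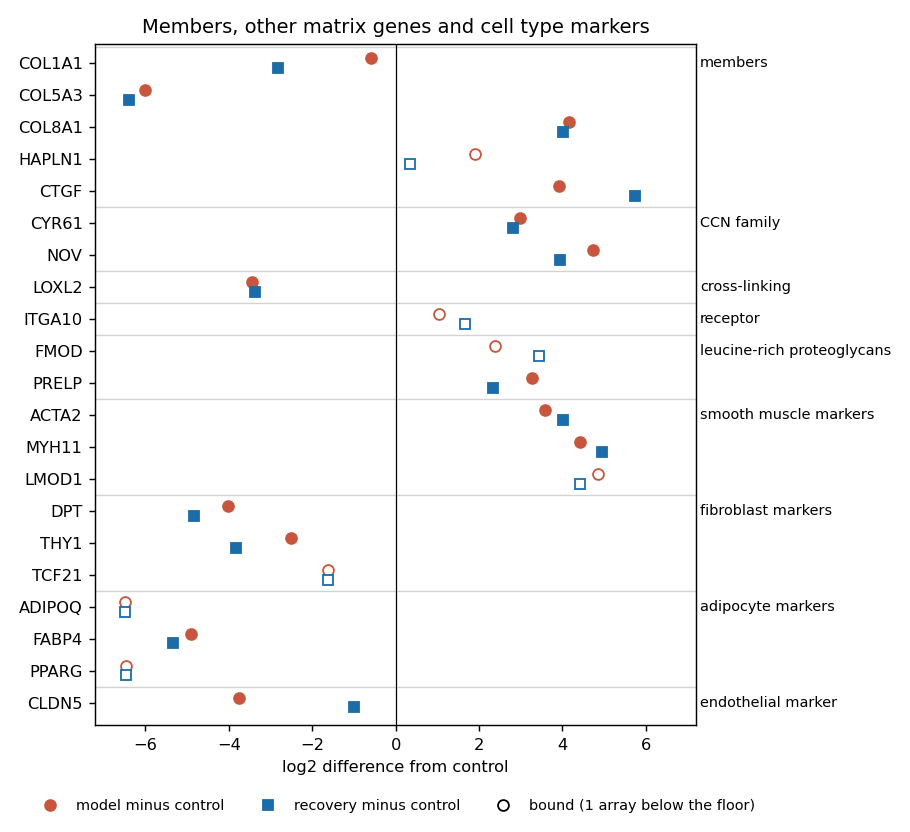
Log2 difference from control in the model (circles) and recovery (squares) arrays for the 5 genes and other matrix genes that received a probe. Smooth muscle, fibroblast, adipocyte and endothelial markers with a probe are drawn beside them. Open symbols mark a bound, where 1 of the arrays lay below the floor. COL8A1, the CCN genes and the smooth muscle markers lie on the higher side of control. COL5A3, LOXL2 and the fibroblast, adipocyte and endothelial markers lie on its lower side. COL1A1 lies there too, but at only -0.58 in the model array. Of the markers not drawn, those of skeletal muscle were higher and those of lymphocytes lower. The neuronal and Schwann cell markers, also not drawn, went both ways in the model array.

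For each of the 5 genes, the nearest courses among the genes with a probe were ranked by Euclidean distance in the log2 differences of model and recovery from control, over 3 arrays. Nearest to COL8A1 was MRVI1, a regulator of calcium release in smooth muscle, at a distance of 0.07. Its log2 signals were 4.97, 9.19 and 8.98 in control, model and recovery. ROBO2 and ADCY9 followed at 0.17 and 0.18, ROBO2 below the floor in control and ADCY9 in control and model. Nearest to CTGF was CASQ2, which stores calcium in muscle, at 0.34, followed by DTNA and NT5E at 0.72 and 0.75. DTNA lay below the floor in control. Nearest to COL1A1 was NCAPG, a condensin subunit used in mitosis, at 0.16. CKS2, a cyclin-dependent kinase subunit, followed at 0.32 and CARD6 at 0.33. NCAPG was below the floor in recovery and CARD6 in model and recovery, whereas CKS2 lay above it in all 3 arrays, at 8.86, 7.96 and 6.06. The genes nearest to COL5A3 that lay above the floor in all arrays were EBP, an enzyme of cholesterol synthesis, at 0.33, and AGPAT9, an acyltransferase of triglyceride synthesis, at 0.34. DSP, encoding desmoplakin, ranked before them at 0.28, but its model and recovery values lay below the floor, so its distance is not a measured one. Nearest to HAPLN1 were SOST, encoding sclerostin, at 0.24, and ANKRD1, a muscle ankyrin repeat protein, at 0.34, followed by KCTD8 at 0.45, all below the floor in control as HAPLN1 was. With values below the floor set to it, 8 of the 15 genes nearest to the members stayed among the nearest. NCAPG, CARD6, DSP, ROBO2, ADCY9, SOST and ANKRD1 did not, and KCTD8 was the only neighbour of HAPLN1 that did.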

How the data were processed

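The deposited values are log2 signal values. To make them, the authors ran Agilent Feature Extraction (10.7 per the submitters' processing notes) and then quantile normalization in GeneSpring. How background and replicate spots were handled is not given in the sources used here. The 3 columns, all used, have nearly the same distribution (sorted values differ by at most 0.016). The table holds 58 control rows, 1 of them a negative control, so the floor was the 40th percentile of all values, 4.37. After flooring, a difference of 2-fold or more counted as a change, over the 28959 probes that passed the floor in any array. The number of arrays limits the precision.

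For the wider gene lists a probe was assigned only where fewer than 0.05 chance matches were expected from the number of probes in a surrounding square of side 0.6, with 10.8 false assignments expected among 549. No annotation of the probes was used, so the median over a gene's probes was not run, and no sequences are shown. The methods of matching and counting were checked on simulated data, in which every row to match came from a true probe. That check could not show how often a row without a probe is matched by chance. The members and lists were chosen with earlier results of these data known. Named genes are the 5 members, list genes with a probe, the 3 genes nearest in course to each member, and markers, of which not all are named. Alternatives changed the floor, the scaling, the fold threshold and the tolerance of the match, 1 at a time. Python 3.11.15, numpy 2.4.6, pandas 2.3.3 and matplotlib 3.10.9 were used.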

Additional observations from a re-analysis of the deposited data

How the results depend on the processing

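No paired analysis was possible because each group has 1 array. For the same reason no replicate could be left out. A difference counted as moved when it shifted by more than 1.5 times, as no spread between rabbits exists to judge it by. The shift by spiked-in controls adds 1 constant to each array. Between any 2 arrays it came to at most 0.55 in log2, less than 1.5-fold. It therefore could not move any of the 15 differences of the 5 genes by that much, and that none moved says nothing on their stability. Every count of the 5 genes at 2-fold was kept. HAPLN1 against control depended on the floor: a floor at the 20th percentile gave log2 differences of 4.47 in model and 2.92 in recovery, and no floor gave 4.69 and 3.14, so that recovery then passed 2-fold. With the floor at the 60th percentile HAPLN1 lay below the floor in all arrays, listed as 0.00 for model against control and for recovery against model, and COL5A3 stood at -5.17 in both later arrays against control. At a threshold of 4-fold 1 gene in place of 3 differed between recovery and model, namely COL1A1. Counts of probes depended more on the settings. In model against control, the 3451 higher and 3785 lower probes became 1131 and 1438 at 4-fold, 6617 and 6160 at 1.5-fold, 2115 and 2413 under a floor at the 60th percentile, and 5814 and 6162 with no floor. In the matrix lists, the 8 genes higher in model than in control became 5 with the floor at the 60th percentile. In recovery against model, the 2 higher and 2 lower list genes became 1 and 4 after the shift by spiked-in controls, with FMOD lost and NOV and PRELP added. Raising the limit to 0.1 expected chance matches, chosen after seeing the data, gave 895 genes a probe in place of 549.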

Other observations

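Under the wider limit of 0.1 expected chance matches, chosen after seeing the data, 36.3 false assignments are expected among 895 genes, and 3 further matrix genes received a probe. TGFB3, encoding a transforming growth factor β ligand, had log2 signals of 4.49, 6.43 and 5.38 in the control, model and recovery arrays, highest in the model array as HAPLN1 was. TGFBI, encoding a matrix protein induced by transforming growth factor β, had 10.85, 9.09 and 9.96 in the same order and was lowest in the model array. COL23A1, a transmembrane collagen gene, stood at 5.30 in control and lay below the floor in model and recovery, which allows a bound of at least 1.90-fold lower.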
